A study of Mus musculus with 12 samples.

Results

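Cyclins and cyclin-dependent kinases (CDKs) were followed in mouse hepatocytes with and without the genes Yap and Taz, before and after liver injury. The 10 genes were the rows of the deposited count table with the symbols Ccnd1, Ccnd2, Cdk4, Ccne1, Ccne2, Cdk2, Ccna2, Cdk1, Ccnb1 and Ccnb2, listed here from G1 phase to mitosis, and they are 10 of the 37141 gene rows. The rule uses their names and no measured value. Each of 4 groups had 3 libraries of polyA RNA from 500000 sorted hepatocytes. The Yap/Taz KO + CCl4 group came from Yap flox/flox; Taz flox/flox mice given an AAV8 virus (5e11 genome copies) that carries Cre under the hepatocyte promoter TBG, and 3 weeks later carbon tetrachloride (CCl4) at 1 ml/kg in corn oil. The ctrl + CCl4 group came from mice with the same floxed alleles that had CCl4 but no Cre vector. Both injured groups were collected 48 hours after CCl4. The Yap/Taz KO group had the Cre vector and no CCl4, with collection 3 weeks after the vector, and the ctrl group had neither. The labels name no control vector and no oil injection for the groups without Cre or CCl4, and give neither age nor sex. Cre driven by TBG acts in hepatocytes, so other liver cells keep both genes.

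A cyclin is the regulatory subunit that switches on its CDK and points the kinase to its substrates. D-type cyclins with CDK4 start the exit from quiescence by phosphorylating RB proteins, E-type cyclins with CDK2 drive entry into S phase, cyclin A2 works with CDK2 and CDK1 through S phase and G2, and B-type cyclins with CDK1 bring cells into mitosis. Adult hepatocytes are mostly quiescent and re-enter the cycle when liver tissue is lost, as after CCl4, which hepatocytes around the central vein turn into a toxic radical. YAP and TAZ are transcriptional coactivators of the Hippo pathway that bind TEAD factors, and cell cycle genes are among their known targets in other settings.

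The promoter windows below are shown because 3 of them belong to genes of the mitotic end of the series that were higher together after injury, and the fourth, Cdk4, to a kinase of the G1 end. Each runs 5′ to 3′ from 250 bases before the start site to 20 bases from it on, taken from RefSeq on GRCm38.p6, and capitals mark the motif words listed after them.
Cdk1 (chr10:69352893-69353162, minus strand): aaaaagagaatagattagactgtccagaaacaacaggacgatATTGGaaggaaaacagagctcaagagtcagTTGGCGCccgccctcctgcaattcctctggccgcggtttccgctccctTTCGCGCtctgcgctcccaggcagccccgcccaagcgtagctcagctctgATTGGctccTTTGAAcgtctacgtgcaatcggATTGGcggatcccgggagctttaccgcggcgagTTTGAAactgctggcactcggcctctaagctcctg
Ccnb1 (chr13:100786467-100786736, minus strand): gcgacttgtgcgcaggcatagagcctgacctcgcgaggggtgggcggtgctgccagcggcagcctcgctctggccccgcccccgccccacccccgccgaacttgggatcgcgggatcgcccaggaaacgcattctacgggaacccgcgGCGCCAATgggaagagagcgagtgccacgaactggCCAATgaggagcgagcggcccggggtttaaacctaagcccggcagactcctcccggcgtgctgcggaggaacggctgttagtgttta
Ccnb2 (chr9:70421535-70421804, minus strand): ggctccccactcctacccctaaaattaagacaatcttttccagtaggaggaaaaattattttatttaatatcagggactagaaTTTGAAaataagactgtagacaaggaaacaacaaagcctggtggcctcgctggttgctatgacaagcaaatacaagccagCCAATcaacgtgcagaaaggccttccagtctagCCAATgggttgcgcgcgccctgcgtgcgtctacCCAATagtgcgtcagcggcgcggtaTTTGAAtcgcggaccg
Cdk4 (chr10:127063285-127063554, plus strand): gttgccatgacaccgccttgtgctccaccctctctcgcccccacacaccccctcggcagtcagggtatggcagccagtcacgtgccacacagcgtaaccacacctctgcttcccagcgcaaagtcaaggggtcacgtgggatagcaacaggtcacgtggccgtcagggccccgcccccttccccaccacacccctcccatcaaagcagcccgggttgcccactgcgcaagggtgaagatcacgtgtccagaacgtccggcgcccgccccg

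The words searched on both strands, in windows of 300 bases, were the cell cycle homology region CHR (TTTGAA or TTCGAA), the CCAAT box (CCAAT), the E2F word in 4 forms (TTCCCGC as the first form, TTGCCGC as the next, then TTCGCGC as another, and TTGGCGC as the last form) and the TEAD word (GGAATG). Windows were matched for 6 of the 10 genes, namely Cdk4, Ccne1, Cdk2, Cdk1, Ccnb1 and Ccnb2. The Cdk1 window held 2 CHR words, 3 CCAAT boxes and 2 E2F words, with the nearer CHR word 15 bases before the start site. The Ccnb2 window held 2 CHR words, one of them 4 bases after the start site, and 3 CCAAT boxes. In the Ccnb1 window there were 2 CCAAT boxes, and the one E2F word overlapped one of them. The Cdk2 window held 3 E2F words and 1 CCAAT box, and none of these words was found in the Cdk4 and Ccne1 windows. No TEAD word was found in any of the 6. Among all 32851 RefSeq windows of this length, 19.2% held a CHR word, 37.4% a CCAAT box, 9.57% an E2F word and 14.7% a TEAD word. These matches describe the letters and are not evidence of binding.

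Library totals ran from 1617761 to 3028951 counts, and 11281 to 14879 genes had at least 1 count. Levels are given as CPM, counts per 1000000 counts of the library size after TMM scaling, which sets the libraries to a common level over most genes. Yap1 lay between 14.2 and 14.8 CPM in the Yap/Taz KO + CCl4 libraries, against 50.6 to 65.7 CPM in the ctrl + CCl4 libraries. Without injury it lay between 9.65 and 22.2 CPM in the Yap/Taz KO libraries and between 40.3 and 71.8 CPM in the ctrl libraries. By Yap1, all 12 libraries went with the genotype in their labels. Wwtr1, which encodes TAZ, lay between 19.9 and 25.3 CPM in the Yap/Taz KO + CCl4 libraries and between 32.6 and 34.8 CPM in the ctrl + CCl4 libraries. Uninjured libraries held 10.1 to 18.3 CPM of Wwtr1 in Yap/Taz KO and 24.2 to 57.6 CPM in ctrl. A read near the 3′ end does not test a deletion elsewhere in a gene. Hepatocyte markers had the highest sum of all marker lists in every library, and 10 of 10 were detected in each group. Replicate 1 of the ctrl group stood apart: its summed markers of macrophages (2561 CPM) and stellate cells (1441 CPM) were the highest of the 6 uninjured libraries. For the named genes, injury values of the ctrl background that move by over 1.5 times without it are also given without it. The labels do not say that the libraries came from separate mice, so the p-values reflect how far these samples scatter, and that scatter may be technical only. In such bulk samples, fewer cells of a type and less RNA per cell cannot be told apart.

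Most cyclin and CDK transcripts were higher after injury in both genotypes. In the Yap/Taz KO background, 9 of the 10 genes were higher after CCl4 in the edgeR quasi-likelihood test (adjusted p under 0.05 over all genes tested). There, 17.8% of the 10780 genes tested passed in either direction, 9.42% being higher and 8.35% lower. In the ctrl background 6 of the 10 were higher, beside 22.5% of genes passing in either direction, 10.5% being higher and 12% lower. None of the 10 was lower in either. Other processing settings, listed further on, gave 7 to 9 higher in the ctrl background and 9 in the Yap/Taz KO background. Leaving out a library gave 5 to 9 in the ctrl background and 6 to 9 in the Yap/Taz KO background. Injured and uninjured libraries did not overlap for 9 of the 10 in the Yap/Taz KO background, beside 39.4% of all genes tested. In the ctrl background they did not overlap for 9 of the 10, beside 36.7%. The number of genes passing in the first comparison but not in the second is no test of a difference between the responses, which is given further on. Of the 10, Ccne1, Ccne2, Ccna2, Cdk1, Ccnb1 and Ccnb2 passed the filter on low counts only through the injured libraries. Counts of calls, counts without overlap and any median of the 10 are therefore not read against all genes. Ccnd1, Ccnd2, Cdk4 and Cdk2 also passed it among the 6 uninjured libraries alone.

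**Figure D1:**
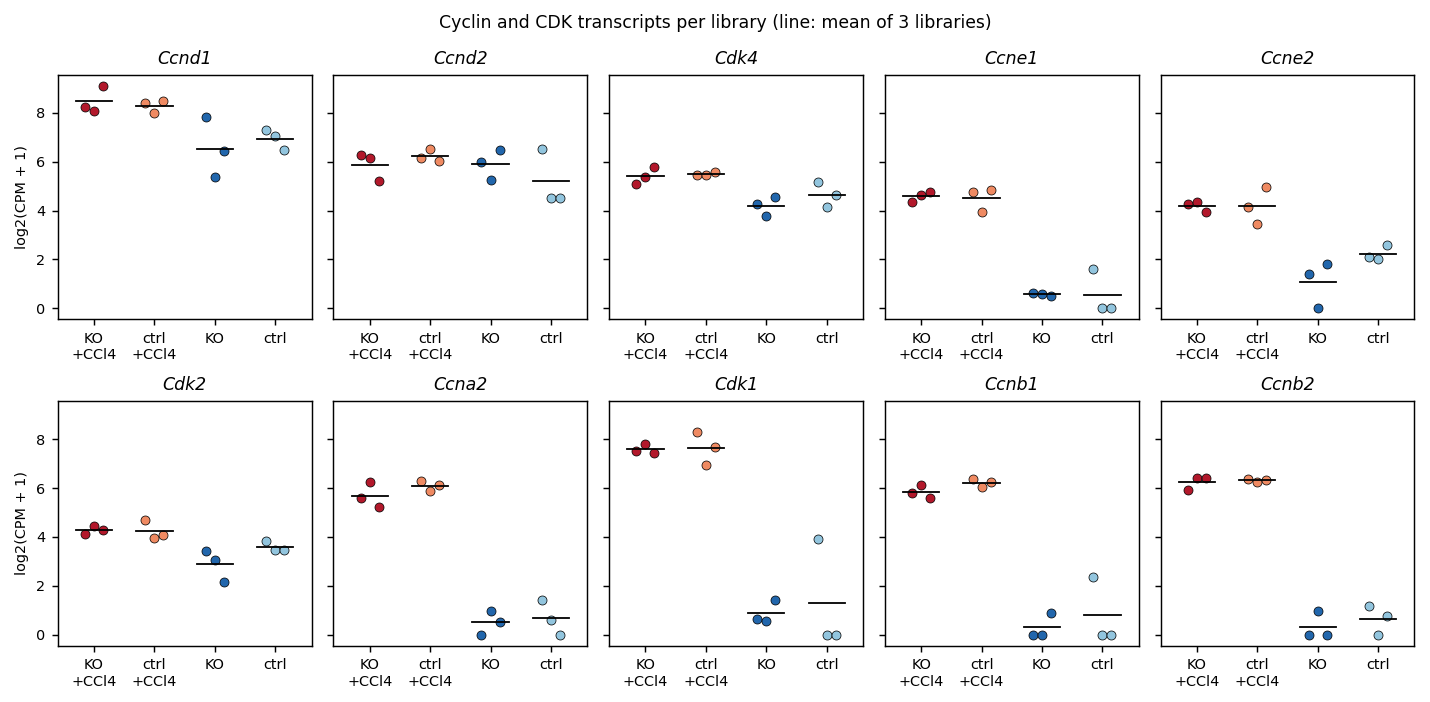
Level of each of the 10 genes in each library, as log2(CPM + 1) on the vertical axis, in 4 groups of 3 libraries along the horizontal axis (KO stands for Yap/Taz KO). Points are libraries and lines are means of the plotted values. The genes of S phase and mitosis sit near 0 in most uninjured libraries and in all 6 injured libraries lie far above them, while Ccnd2 overlaps between the groups.

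The D-type cyclins and CDK4 were transcribed before injury, and their fitted log2 changes after it lay between -0.05 and 1.68. Ccnd1, the D-type cyclin known as the main G1 cyclin of regenerating hepatocytes, lies on the minus strand of chromosome 7 (GRCm38, 144929931 to 144939925). It had 298, 272 and 554 CPM in the Yap/Taz KO + CCl4 libraries, against 226, 40.1 and 85.2 CPM in the Yap/Taz KO libraries. It had 338, 257 and 354 CPM in ctrl + CCl4, against 156, 131 and 88.8 CPM in ctrl. The injured libraries were all above the uninjured ones of their genotype. Groups did not overlap for 39.4% of all genes tested in the Yap/Taz KO background and 36.7% in the ctrl background. The highest Ccnd1 value was in replicate 3 of Yap/Taz KO + CCl4 and the lowest in replicate 2 of Yap/Taz KO. The log2 fold change of Ccnd1 after injury was 1.68 (SE 0.47, edgeR adjusted p = 0.023) in the Yap/Taz KO background. In the ctrl background it was 1.33 (SE 0.47, adjusted p = 0.0535), which did not pass. The first call was lost without replicate 3 of Yap/Taz KO + CCl4 (adjusted p = 0.111), and without replicate 2 (0.0669) or replicate 3 (0.0899) of Yap/Taz KO. The second passed in 9 of 18 alternatives, among them DESeq2 (adjusted p = 0.0142) and edgeR without replicate 1 of ctrl (adjusted p = 0.0408).

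Ccnd2, a second D-type cyclin, did not pass the test in either background. It had 77.0, 69.2 and 36.1 CPM in Yap/Taz KO + CCl4, against 63.4, 37.6 and 87.7 CPM in Yap/Taz KO. The ctrl + CCl4 libraries held 71.1, 90.3 and 63.8 CPM, against 92.1, 22.1 and 22.0 CPM in ctrl. The groups overlapped in both backgrounds, and replicate 1 of ctrl lay above all 3 ctrl + CCl4 libraries. The log2 fold change was -0.05 (SE 0.48, adjusted p = 0.96) in the Yap/Taz KO background, and 0.29 when scaled by library totals. With ctrl it was 0.70 (SE 0.48, adjusted p = 0.333). Without replicate 1 of ctrl, Ccnd2 was higher after injury, with a log2 fold change of 1.76 and an edgeR adjusted p of 0.0035. The replicate with the most Ccnd1 among the injured Yap/Taz KO libraries, replicate 3, was also the one with the least Ccnd2.

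Cdk4 encodes the kinase that D-type cyclins activate. It had 33.5, 40.8 and 53.7 CPM in Yap/Taz KO + CCl4, against 18.4, 12.5 and 22.6 CPM in Yap/Taz KO. Its levels were 42.9, 42.7 and 47.4 CPM in ctrl + CCl4, against 35.0, 16.6 and 24.2 CPM in ctrl. The groups did not overlap in either background, as for 39.4% of all genes tested in the Yap/Taz KO background and 36.7% in the ctrl background. It was higher after injury in the Yap/Taz KO background, with a log2 fold change of 1.25 (SE 0.31, edgeR adjusted p = 0.0111). The value in the ctrl background was 0.80 (SE 0.30, adjusted p = 0.0706). The Yap/Taz KO call was lost without replicate 3 of Yap/Taz KO + CCl4 (adjusted p = 0.0593) or replicate 2 of Yap/Taz KO (0.0595), while in the ctrl background it passed in 4 of 18 alternatives, among them library totals (0.0187), DESeq2 (0.0472) and edgeR without replicate 1 of ctrl (log2 fold change 1.13, adjusted p = 0.0153).

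The E-type cyclins were nearly silent without injury. Ccne1, which activates CDK2 at the border of G1 and S phase, had 62, 76 and 83 counts in the Yap/Taz KO + CCl4 libraries, against 1 count in each of the 3 Yap/Taz KO libraries. It had 72, 47 and 85 counts in ctrl + CCl4, against 5, 0 and 0 in ctrl. Every injured library was above every uninjured one. The ratio of summed counts per scaled library size was 48.5 in the Yap/Taz KO background (95% interval of counting error 16.4 to 237) and 26.1 in the ctrl background (11 to 81.2). The edgeR adjusted p was 0.000119 in the first and 0.000155 in the second. Without replicate 1, ctrl held no Ccne1 count, and the gene was at least 25.3-fold higher in ctrl + CCl4, taking 3 counts over the group as the floor.

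Ccne2, its paralog, kept a low level in uninjured ctrl libraries. It had 18.3, 19.3 and 14.4 CPM in Yap/Taz KO + CCl4, against 1.62, 0 and 2.56 CPM in Yap/Taz KO. There were 16.5, 10.1 and 30.3 CPM in ctrl + CCl4, against 3.29, 3.02 and 4.98 CPM in ctrl. The injured libraries were all above the uninjured ones. Its log2 fold change was 3.56 (SE 0.65, adjusted p = 0.00154) in the Yap/Taz KO background and 2.35 (SE 0.58, adjusted p = 0.00875) in the ctrl background, both by edgeR. The ctrl call was lost without replicate 3 of ctrl + CCl4, the highest library (adjusted p = 0.0621).

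Cdk2, the kinase partner of cyclins E and A, was present in every library. It had 16.4, 20.5 and 18.5 CPM in Yap/Taz KO + CCl4, against 9.75, 7.24 and 3.41 CPM in Yap/Taz KO. It had 24.9, 14.3 and 16.1 CPM in ctrl + CCl4, against 13.2, 10.1 and 9.95 CPM in ctrl. No overlap was seen in either background, which also held for 39.4% of all genes tested in the Yap/Taz KO background and 36.7% in the ctrl background. Cdk2 was higher after injury in the Yap/Taz KO background, by 1.46 on the log2 scale (SE 0.39, edgeR adjusted p = 0.0184). The difference in the ctrl background was 0.72 (SE 0.38, adjusted p = 0.197), and its 95% interval ran from -0.08 to 1.53. That difference passed in 1 of 18 alternatives, library totals (log2 fold change 1.09, edgeR adjusted p = 0.0459). The Yap/Taz KO call was lost without replicate 2 of Yap/Taz KO + CCl4 (adjusted p = 0.0648), and without replicate 2 (0.0519) or 3 (0.0738) of Yap/Taz KO.

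**Figure D2:**
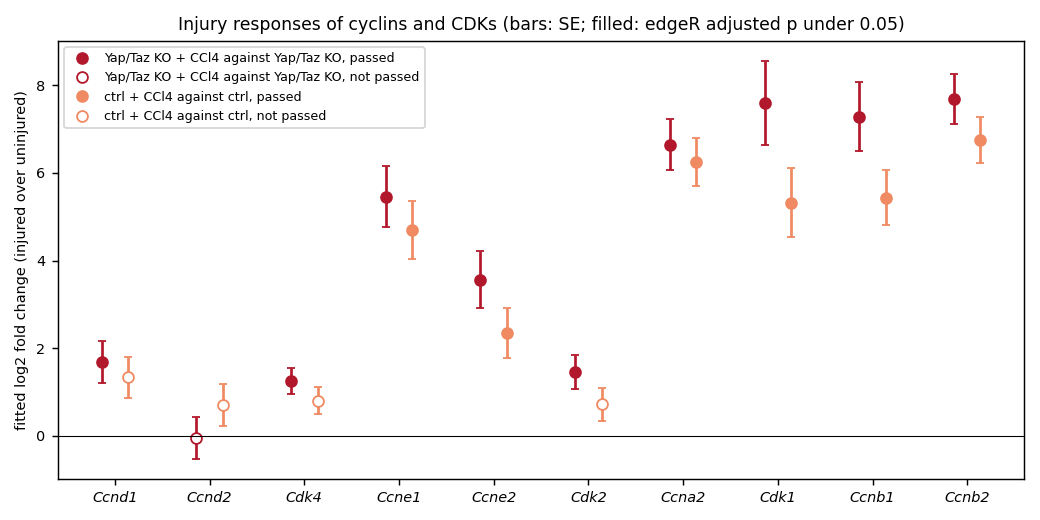
Fitted log2 fold change after injury (vertical axis) for the 10 genes, ordered from G1 to mitosis along the horizontal axis, in the Yap/Taz KO and the ctrl background. Points are edgeR estimates, bars are SE, and filled points passed an adjusted p of 0.05. The estimates lie between -0.05 and 1.68 for Ccnd1, Ccnd2, Cdk4 and Cdk2 and between 2.35 and 7.70 for the other 6 genes. For groups with few counts the plotted size depends on the fit.

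Cyclin A2 and the mitotic genes had fitted log2 fold changes between 5.32 and 7.70 over both backgrounds, sizes that depend on uninjured groups with few counts. Ccna2, the cyclin of S phase and G2, had 148, 235 and 117 counts in Yap/Taz KO + CCl4, against 0, 2 and 1 in Yap/Taz KO. The ctrl + CCl4 libraries held 213, 190 and 211 counts, against 4, 1 and 0 in ctrl. Every injured library was above every uninjured one. The ratio of summed counts was 109.8 (95% interval of counting error 37.3 to 534) in the Yap/Taz KO background and 78.5 (33.5 to 243) in the ctrl background. Both differences passed the edgeR test, with adjusted p = 5.31e-06 and 4.75e-06. Without replicate 1 of ctrl, the ctrl ratio was 229 (40.9 to 9047).

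Cdk1, the kinase that drives entry into mitosis, lies on the minus strand of chromosome 10 (GRCm38, 69335146 to 69352938). It had 579, 713 and 550 counts in Yap/Taz KO + CCl4, against 1, 1 and 4 in Yap/Taz KO. Its levels were 861, 397 and 636 counts in ctrl + CCl4, against 34, 0 and 0 in ctrl. The 34 counts were all in replicate 1 of ctrl, the uninjured library with the most macrophage and stellate cell marker RNA. Their part in its Cdk1 counts was not tested. Every injured library was above every uninjured one. The ratio of summed counts was 202 (92.7 to 552) in the Yap/Taz KO background and 35.6 (25.4 to 51.6) in the ctrl background, with edgeR adjusted p = 0.00011 and 0.000249. Leaving out that library made the ctrl + CCl4 level at least 235-fold higher than ctrl, with 3 counts over the group as the floor.

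Ccnb1, the B-type cyclin that most cells need for mitosis, lies on the minus strand of chromosome 13 (GRCm38, 100778650 to 100786570). It had 174, 218 and 150 counts in Yap/Taz KO + CCl4, against 0, 0 and 2 in Yap/Taz KO. There were 220, 212 and 231 counts in ctrl + CCl4, against 10, 0 and 0 in ctrl. As for Cdk1, all ctrl counts were in replicate 1. The ratio of summed counts was 178.5 (49.2 to 1477) in the Yap/Taz KO background, with edgeR adjusted p = 2.49e-05. In the ctrl background it was 42.4 (22.9 to 88.8), with adjusted p = 3.32e-05, and ctrl + CCl4 was at least 82.3-fold higher without replicate 1 of ctrl, on the same floor.

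Ccnb2, the second B-type cyclin, lies on the minus strand of chromosome 9 (GRCm38, 70407692 to 70421547). Its counts were 186, 270 and 271 in Yap/Taz KO + CCl4, against 0, 2 and 0 in Yap/Taz KO. They were 226, 247 and 245 in ctrl + CCl4, against 3, 0 and 1 in ctrl. Every injured library was far above every uninjured one, and the 3 ctrl + CCl4 libraries were the most alike. The ratio of summed counts was 239 (66.0 to 1980) in the Yap/Taz KO background and 115 (44.6 to 422) in the ctrl background. The edgeR adjusted p was 1.65e-06 in the first and 1.89e-06 in the second. Without replicate 1 of ctrl, the ctrl ratio was 267 (47.9 to 10580).

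Markers of several other cell types were also higher after injury, and others were not. Summed markers of monocytes and neutrophils lay between 659 and 889 CPM in Yap/Taz KO + CCl4, against 32.8 to 148 CPM in Yap/Taz KO, with Csf3r at 0 in the uninjured group. They lay between 731 and 1881 CPM in ctrl + CCl4, against 67.4 to 338 CPM in ctrl. Of these 8 markers 7 were tested, and 7 were higher in the Yap/Taz KO background and 4 in the ctrl background. Stellate cell markers lay between 1696 and 1901 CPM in Yap/Taz KO + CCl4, against 310 to 842 CPM in Yap/Taz KO, with 5 of 10 higher. In the ctrl background they lay between 1137 and 2131 CPM after injury, against 327 to 1441 CPM, with 3 of 10 higher. Macrophage markers lay between 1517 and 2379 CPM in Yap/Taz KO + CCl4, against 211 to 1020 CPM in Yap/Taz KO, with 3 of 11 higher. They lay between 1921 and 2783 CPM in ctrl + CCl4, against 468 to 2561 CPM in ctrl, with 2 of 11 higher. Sinusoidal endothelial markers lay between 681 and 899 CPM in Yap/Taz KO + CCl4, against 315 to 840 CPM in Yap/Taz KO, and between 631 and 750 CPM in ctrl + CCl4, against 399 to 1616 CPM in ctrl, with 0 of 8 called in either background. Bile duct markers lay between 98.0 and 226 CPM in Yap/Taz KO + CCl4, against 46.6 to 86.0 CPM in Yap/Taz KO, and between 388 and 463 CPM in ctrl + CCl4, against 44.1 to 75.7 CPM in ctrl. Of 3 tested bile duct markers, 1 (Spp1) was higher in each background. Erythroid markers lay between 72.7 and 94.7 CPM in Yap/Taz KO + CCl4, against 19.8 to 55.8 CPM in Yap/Taz KO, with 0 of 4 called. They lay between 31.6 and 119 CPM in ctrl + CCl4, against 19.6 to 1584 CPM in ctrl, with 2 of 4 lower. No lymphocyte marker passed the filter on low counts. Hepatocyte markers summed to 70970 to 88308 CPM in Yap/Taz KO + CCl4, against 115550 to 145660 CPM in Yap/Taz KO, and to 47733 to 63939 CPM in ctrl + CCl4, against 100680 to 139690 CPM in ctrl. Of the 10 hepatocyte markers, 4 were lower in the Yap/Taz KO background and 10 in the ctrl background. In the test of the difference between the injury responses, 0 of the 10 passed. Of all genes tested, 9.42% were higher and 8.35% lower in the Yap/Taz KO background, and 10.5% and 12% in the ctrl background. Which markers passed the filter on low counts only through the injured libraries was not examined, so the marker counts are a description. The part of these cell types in the cyclin and CDK counts was not tested.

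In injured livers the levels of the 10 genes in the 2 genotypes lay close together. None passed between Yap/Taz KO + CCl4 and ctrl + CCl4 by edgeR, where 0% of the 10780 genes passed. At an unadjusted p under 0.05 there were 613 genes and 0 of the 10, and DESeq2 called 17 genes and 0 of the 10. Ccnd1 averaged 375 ± 156 CPM in Yap/Taz KO + CCl4 and 316 ± 52.3 CPM in ctrl + CCl4 (SD, n = 3 each), with a 95% interval of the log2 difference from -0.73 to 1.22. Cdk1 averaged 194 ± 27.9 CPM in Yap/Taz KO + CCl4 and 214 ± 97.4 CPM in ctrl + CCl4, with an interval from -1.44 to 1.15. For both genes the difference of the means was smaller than the spread of one group.

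The other 8 genes had fitted log2 differences between -0.37 and 0.03. Ccnb1 averaged 57.0 ± 11.03 CPM in Yap/Taz KO + CCl4 and 73.2 ± 8.02 CPM in ctrl + CCl4 (log2 difference -0.36, 95% interval -1.29 to 0.56). Ccnb2 averaged 76.4 ± 15.3 CPM in Yap/Taz KO + CCl4 and 79.0 ± 3.71 CPM in ctrl + CCl4 (-0.05, -0.72 to 0.62). Ccna2 averaged 52.6 ± 19.4 CPM in Yap/Taz KO + CCl4 and 68.0 ± 10.0 CPM in ctrl + CCl4 (-0.37, -1.10 to 0.36). In all 3 the libraries of the groups overlapped. Ccne1 averaged 23.2 ± 3.32 CPM in Yap/Taz KO + CCl4 and 22.7 ± 7.26 CPM in ctrl + CCl4, and the interval of its log2 difference ran from -0.91 to 0.98. Ccne2 averaged 17.3 ± 2.55 CPM in Yap/Taz KO + CCl4 and 18.9 ± 10.3 CPM in ctrl + CCl4, with an interval from -1.17 to 0.91. Cdk4 averaged 42.6 ± 10.2 CPM in Yap/Taz KO + CCl4 and 44.3 ± 2.65 CPM in ctrl + CCl4, with an interval from -0.67 to 0.56. Cdk2 averaged 18.5 ± 2.06 CPM in Yap/Taz KO + CCl4 and 18.5 ± 5.66 CPM in ctrl + CCl4, with an interval from -0.75 to 0.77. Ccnd2 averaged 60.8 ± 21.7 CPM in Yap/Taz KO + CCl4 and 75.0 ± 13.7 CPM in ctrl + CCl4, with an interval from -1.31 to 0.70. The adjusted p-values of the 10 genes by edgeR ran from 0.9895 to 0.9996, and a p above the threshold does not show that the groups were alike. The groups overlapped for all 10 genes, while 16.3% of all genes tested had groups that did not overlap. The sign of the small differences of Cdk2 and Ccne1 turned when library totals were used in place of TMM factors, to -0.13 for both.

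**Figure D3:**
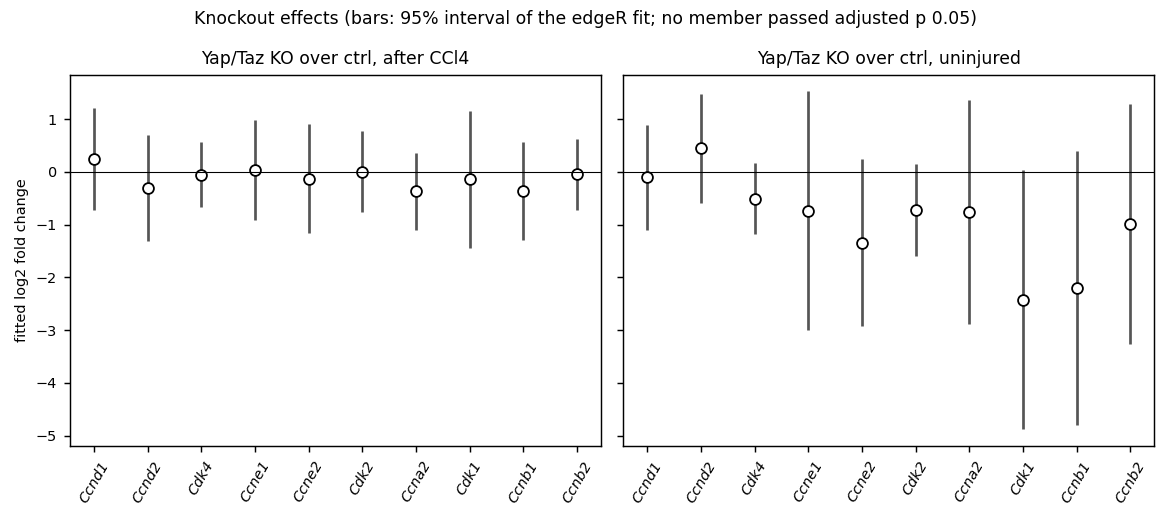
Fitted log2 fold change of Yap/Taz KO over ctrl (vertical axis) for the 10 genes, after CCl4 on the left and without injury on the right. Points are edgeR estimates and bars their 95% intervals. After CCl4 every interval crosses 0 and the estimates lie between -0.37 and 0.24, while without injury the intervals of the genes with few counts, such as Cdk1 and Ccnb1, are far wider.

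Without injury the comparison was limited by depth for most of the 10 genes. None passed between Yap/Taz KO and ctrl by edgeR, where 0% of genes passed, and none had an unadjusted p under 0.05, beside 1020 genes of all tested. DESeq2 called 43 genes and none of the 10. Cdk2 averaged 6.80 ± 3.19 CPM in Yap/Taz KO and 11.1 ± 1.82 CPM in ctrl (SD, n = 3 each), with a log2 fold change of -0.73 (SE 0.41, adjusted p = 0.59). Ccne2 averaged 1.39 ± 1.29 CPM in Yap/Taz KO and 3.76 ± 1.06 CPM in ctrl (log2 fold change -1.34, SE 0.74, adjusted p = 0.584). For these 2 of the 10 genes the Yap/Taz KO libraries were all below the ctrl libraries, while 10.7% of all genes tested had groups that did not overlap. Ccnd1 averaged 117 ± 96.9 CPM in Yap/Taz KO and 125 ± 34.1 CPM in ctrl, and its interval ran from -1.10 to 0.88. Ccnd2 averaged 62.9 ± 25.0 CPM in Yap/Taz KO and 45.4 ± 40.4 CPM in ctrl, with an interval from -0.58 to 1.48. The libraries of each of these groups differed among themselves by more than the groups did. Cdk4 averaged 17.8 ± 5.04 CPM in Yap/Taz KO and 25.2 ± 9.23 CPM in ctrl, with an interval from -1.18 to 0.17. Cdk1 had 6 counts over the 3 Yap/Taz KO libraries and 34 over the 3 ctrl libraries, all from replicate 1 (adjusted p = 0.532). Without the low-count filter edgeR called Cdk1 in this comparison (adjusted p = 0.000936), on that single library. Ccne1 and Ccna2 each had 3 counts over the 3 Yap/Taz KO libraries and 5 over the 3 ctrl libraries, a ratio of 0.558 per scaled library size with a 95% interval of counting error from 0.0866 to 2.87. Ccnb2 had 2 counts in Yap/Taz KO and 4 in ctrl (ratio 0.465, interval 0.0420 to 3.24). Ccnb1 had 2 counts in Yap/Taz KO and 10 in ctrl, with a ratio of 0.186 and an interval from 0.0198 to 0.872 that leaves out 1. Its ctrl counts were all in replicate 1, and it did not pass the edgeR test (adjusted p = 0.583). For Ccne1, Ccna2 and Ccnb2 the counting intervals held ratios both below and above 1. Those of Ccnd1, Cdk4, Ccne2, Cdk2 and Cdk1 lay below 1, as for Ccnb1, and that of Ccnd2 lay above 1. Such intervals cover counting error only and leave out the scatter between libraries, on which none of the 10 passed.

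The difference between the injury responses of the genotypes was tested as an interaction. No gene of the 10 passed by edgeR, and 0% of all genes did. At an unadjusted p under 0.05 there were 874 genes and 0 of the 10, and DESeq2 called 12 genes and 0 of the 10. The G1 genes had estimates of 0.35 for Ccnd1 (95% interval -1.04 to 1.74), -0.75 for Ccnd2 (-2.19 to 0.69) and 0.45 for Cdk4 (-0.46 to 1.36). Cdk2 had 0.74 (-0.42 to 1.89) and Ccne2 1.21 (-0.67 to 3.10). Cdk1 had the highest estimate, 2.28 (-0.53 to 5.08, adjusted p = 0.662), and the next was Ccnb1 with 1.85 (-0.91 to 4.61). Both rested on replicate 1 of ctrl: without it the fitted values were -4.51 for Cdk1 and -3.27 for Ccnb1, set against ctrl libraries without a count.

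The share of each paralog in its pair varied between libraries. Shares are of summed counts of a pair, and tag counts at the 3′ end do not grow with transcript length. Ccnd1 made up 79.5%, 79.7% and 93.9% of Ccnd1 and Ccnd2 counts in Yap/Taz KO + CCl4, and 78.1%, 51.6% and 49.3% in Yap/Taz KO. It made up 82.6%, 74.0% and 84.8% in ctrl + CCl4, and 62.9%, 85.5% and 80.1% in ctrl. The low shares were in replicates 2 and 3 of Yap/Taz KO and replicate 1 of ctrl. Ccnb1 made up 48.3%, 44.7% and 35.6% of Ccnb1 and Ccnb2 counts in Yap/Taz KO + CCl4, and 49.3%, 46.2% and 48.5% in ctrl + CCl4. The lowest share was in replicate 3 of Yap/Taz KO + CCl4, with an exact 95% binomial interval from 31.1% to 40.4%. Ccne1 made up 51.7%, 55.5% and 64.3% of the E-type counts in Yap/Taz KO + CCl4, and 61.5%, 58.8% and 47.5% in ctrl + CCl4. No order between the genotypes was seen in that pair. The intervals cover counting error only, and these shares were not tested between groups.

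**Figure D4:**
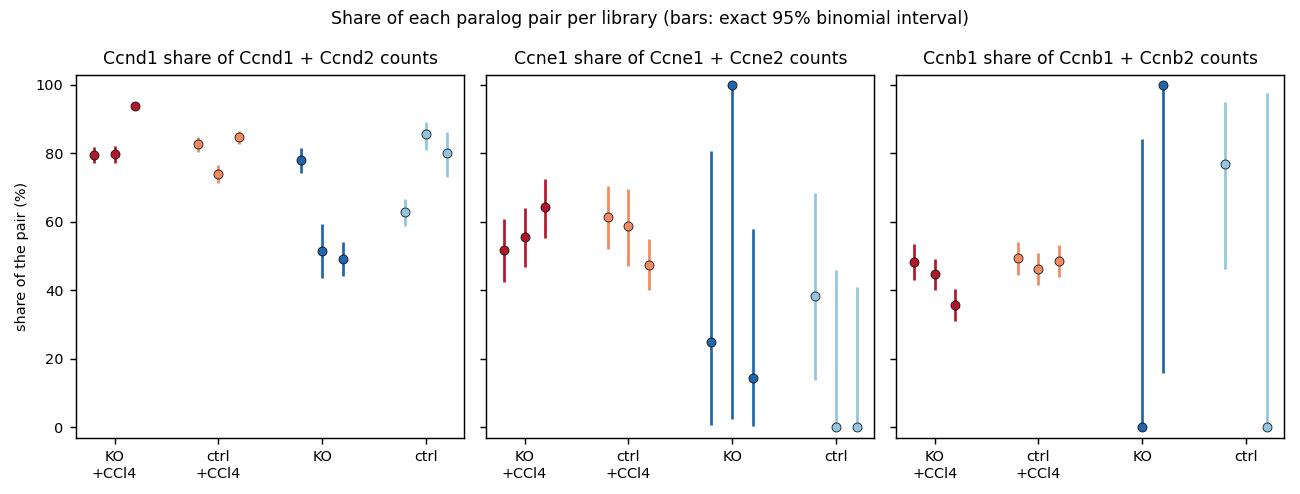
Share of the first paralog in the summed counts of its pair (vertical axis, percent) in each library, by group along the horizontal axis, for the D-, E- and B-type cyclins. Points are libraries and bars exact 95% binomial intervals. Replicate 3 of Yap/Taz KO + CCl4 is highest for Ccnd1 (93.9%) and lowest for Ccnb1 (35.6%) among the injured libraries, and the uninjured libraries hold too few E- and B-type counts for a usable share.

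The genes with the pattern closest to a member over the 12 libraries were found by the mean absolute difference of centred log2 CPM among 10780 genes. Closest to Ccnd1 were Tmem165 (0.24), Sdcbp (0.31) and Jpt2 (0.31). Closest to Ccnb1 were Racgap1 (0.23), which encodes a protein of the cytokinesis machinery, Cdca2 (0.28) and Ttk (0.29), which encodes a kinase of the spindle checkpoint.

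Regulators of cyclins and CDKs were read from lists of 87 genes, of which 86 were found and 72 tested. After injury, 17 were higher and 3 lower in the Yap/Taz KO background, beside 9.42% and 8.35% of all genes tested. For the ctrl genotype, 23 were higher and 1 lower, beside 10.5% and 12%. Of the 72, 16 passed the filter on low counts only through the injured libraries, and these made up 12 of the 17 and 12 of the 23 genes called higher. The counts of calls in the lists are therefore a description and are not read against all genes. Among the regulators named here, Cdc25b, Cdc25c, Cdk14, Foxm1, E2f1, Cdc20, Ube2c and Fbxo5 belong to those 16. None passed in the comparisons of the genotypes or in the interaction.

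In the list of phosphatases that remove inhibitory phosphates from CDKs, the kinases that place them, and Cks adaptors, 4 of 7 genes were tested. These were the phosphatases Cdc25a, Cdc25b and Cdc25c and the adaptor Cks1b. All 4 were higher in both backgrounds, beside 9.42% of all genes tested in the Yap/Taz KO background and 10.5% in the ctrl background. Of the 4, Cdc25b and Cdc25c passed the filter on low counts only through the injured libraries. Both inhibitory kinases, Wee1 and Pkmyt1, and the adaptor Cks2 did not pass the filter on low counts. Cks1b, an adaptor subunit of CDK complexes, averaged 57.0 ± 9.63 CPM in Yap/Taz KO + CCl4 and 9.01 ± 1.24 CPM in Yap/Taz KO (log2 fold change 2.65, edgeR adjusted p = 1.53e-05). It averaged 69.2 ± 8.96 CPM in ctrl + CCl4 and 10.7 ± 2.99 CPM in ctrl (2.69, adjusted p = 1.05e-05). Cdc25b, a phosphatase that activates CDK1, averaged 13.6 ± 1.69 CPM in Yap/Taz KO + CCl4 and 1.11 ± 0.73 CPM in Yap/Taz KO (adjusted p = 0.000983). Its means were 19.4 ± 4.26 CPM in ctrl + CCl4 and 2.01 ± 1.88 CPM in ctrl (adjusted p = 0.000914). Cdc25a, which acts on CDK2, was higher by 2.05 on the log2 scale in the Yap/Taz KO background (adjusted p = 0.00463) and by 1.78 in the ctrl background (adjusted p = 0.00787). Replicate 1 of ctrl held 35 of the 50 ctrl counts of Cdc25a and 10 of the 13 of Cdc25b. Without it the ctrl log2 fold changes were 2.65 for Cdc25a (edgeR adjusted p = 0.000273) and 4.37 for Cdc25b (0.000147), against 3.15 for Cdc25b with it.

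Of the 5 tested CDK inhibitors, 2 were higher in the Yap/Taz KO background and 3 in the ctrl background, beside 9.42% and 10.5% of all genes tested. Cdkn2d, an inhibitor of CDK4 and its relative CDK6, averaged 24.4 ± 3.93 CPM in Yap/Taz KO + CCl4 and 4.94 ± 2.08 CPM in Yap/Taz KO (edgeR adjusted p = 0.00525). It averaged 22.1 ± 4.89 CPM in ctrl + CCl4 and 6.99 ± 5.44 CPM in ctrl (adjusted p = 0.0195). Cdkn2c, a close relative, was higher by 2.65 on the log2 scale in the Yap/Taz KO background (adjusted p = 0.0143) and by 2.28 in the ctrl background (adjusted p = 0.0208). The Cdkn2c calls were lost without replicate 2 of Yap/Taz KO + CCl4 (0.0518) or of Yap/Taz KO (0.0521) in the first background, and without replicate 1 (0.0726) or 3 (0.065) of ctrl + CCl4 in the second. The ctrl call of Cdkn2d was lost without replicate 1 (0.0649) or 3 (0.055) of ctrl + CCl4 and without replicate 2 of ctrl (0.0572). Cdkn1a, which encodes the inhibitor p21, averaged 269.8 ± 50.5 CPM in Yap/Taz KO + CCl4 and 117 ± 56.3 CPM in Yap/Taz KO (log2 fold change 1.20, adjusted p = 0.125). It averaged 249 ± 24.9 CPM in ctrl + CCl4 and 58.3 ± 60.7 CPM in ctrl (2.07, adjusted p = 0.0114). Replicate 1 held 312 of the 393 ctrl counts of Cdkn1a, and without it the log2 fold change was 3.41 (edgeR adjusted p = 1.26e-05). Without the same library that of Cdkn2c in the ctrl background was 2.99 (adjusted p = 0.00783). Cdk6, the relative of Cdk4 in its own list of other cell cycle CDKs, averaged 27.2 ± 7.94 CPM in ctrl + CCl4 and 12.6 ± 5.28 CPM in ctrl (adjusted p = 0.0436). That call was lost in 11 of 18 alternatives, with an adjusted p of up to 0.173 (without replicate 2 of ctrl + CCl4).

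The list of pocket proteins, E2F factors and MuvB subunits, which control when cyclin genes are transcribed, had 16 tested genes. Of these, 6 were higher in the Yap/Taz KO background and 7 in the ctrl background, beside 9.42% and 10.5% of all genes tested. All 6, and 5 of the 7, passed the filter on low counts only through the injured libraries. Foxm1, a factor that binds with MuvB at genes of G2 and mitosis, had 151 counts over the 3 Yap/Taz KO + CCl4 libraries, against 1 in Yap/Taz KO (edgeR adjusted p = 7.92e-05). It had 195 counts over the 3 ctrl + CCl4 libraries, against 0 in ctrl (adjusted p = 2.16e-05). E2f1, an activator of S phase genes, averaged 19.7 ± 2.97 CPM in Yap/Taz KO + CCl4 and 1.32 ± 1.52 CPM in Yap/Taz KO (adjusted p = 0.00284). Its means were 26.3 ± 12.5 CPM in ctrl + CCl4 and 3.79 ± 3.88 CPM in ctrl (log2 fold change 2.69, adjusted p = 0.00786). Of its 25 ctrl counts 20 were in replicate 1, and without that library the log2 fold change was 4.10 (edgeR adjusted p = 0.000763). E2f2 averaged 18.2 ± 3.67 CPM in Yap/Taz KO + CCl4 and 9.01 ± 7.69 CPM in Yap/Taz KO (log2 fold change 0.98, adjusted p = 0.155). The means were 30.4 ± 4.27 CPM in ctrl + CCl4 and 4.67 ± 1.24 CPM in ctrl (2.72, adjusted p = 0.00116).

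The list of the APC/C and SCF ubiquitin ligases, which mark cyclins for destruction, had 20 tested genes. Of these, 4 were higher in the Yap/Taz KO background and 7 in the ctrl background, beside 9.42% and 10.5% of all genes tested. Only through the injured libraries did 3 of the 4, and 4 of the 7, pass the filter on low counts. Cdc20, the activator of the APC/C in mitosis, had 689 counts over the 3 Yap/Taz KO + CCl4 libraries, against 2 in Yap/Taz KO (edgeR adjusted p = 1.67e-06). It had 913 counts over the 3 ctrl + CCl4 libraries, against 3 in ctrl, all in replicate 1 (adjusted p = 1.13e-06). Ube2c, the ubiquitin-conjugating enzyme of the APC/C, had 828 counts in Yap/Taz KO + CCl4, against 4 in Yap/Taz KO (adjusted p = 3.43e-07). It had 1042 counts in ctrl + CCl4, against 29 in ctrl (adjusted p = 1.08e-06). Fbxo5, an inhibitor of the APC/C, averaged 13.4 ± 0.16 CPM in Yap/Taz KO + CCl4 and 1.07 ± 1.06 CPM in Yap/Taz KO (adjusted p = 0.00922). Its means were 18.7 ± 8.85 CPM in ctrl + CCl4 and 0.96 ± 1.66 CPM in ctrl (adjusted p = 0.00347). All 7 ctrl counts of Fbxo5 were in replicate 1. Without that library both Cdc20 and Fbxo5 were called in the ctrl background (edgeR adjusted p = 7.43e-07 and 0.000442), against ctrl libraries with no count of either gene.

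**Figure D5:**
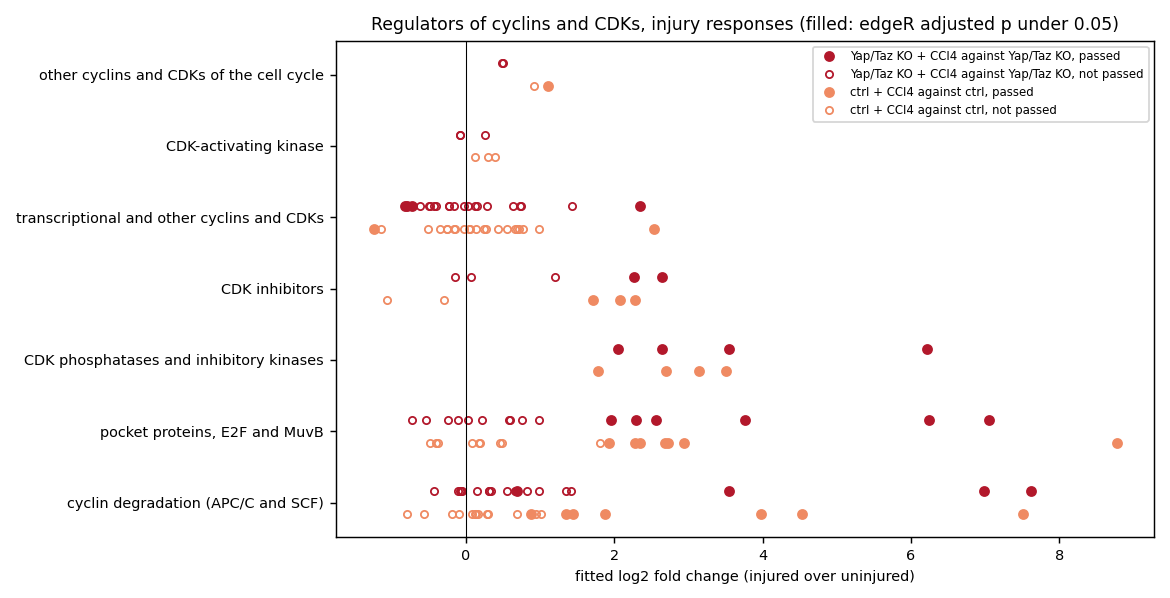
Fitted log2 fold change after injury (horizontal axis) of the tested genes of 7 lists of regulators, 1 list per row, in the Yap/Taz KO and ctrl backgrounds. Filled points passed an edgeR adjusted p of 0.05. In the row of phosphatases, inhibitory kinases and Cks adaptors the 4 tested genes (3 Cdc25 phosphatases and Cks1b) are filled in both backgrounds. In the row of CDK-activating kinase subunits none of 3 is. Of all genes tested, 9.42% were higher in the Yap/Taz KO background and 10.5% in the ctrl background.

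For some members it is not known whether reads of overlapping genes were kept apart in the counting. Genes on the opposite strand cover the 3′ end of Ccnd1 (LTO1), Ccnd2 (Gm43126), Cdk4 (Tspan31), Ccne2 (Ints8) and Ccna2 (Exosc9) in GENCODE M21, and no source used here gives the strand setting of the counting. Over all 12 libraries LTO1 had 239 counts, Exosc9 160, Ints8 121 and Tspan31 42. The pseudogene row Ccnb2-ps had 11 counts and Ccnb1-ps had 0.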

How the data were processed

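RNA was measured in 12 libraries of sorted hepatocytes. The Lexogen QuantSeq FWD kit, per the labels' protocols, gave 3′ end libraries, in which a transcript yields reads near its 3′ end only. The deposited table holds raw counts per gene symbol, not scaled by the authors, as the values show. Per the submitters' processing notes, the tools included STAR 2.6.1d, cutadapt and FastQC, with mm10 and GRCm38 listed as builds. Details of the counter, annotation, strand setting and molecular identifiers were not given in the sources used here.

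Of 37141 gene rows, 17882 were 0 in all 12 libraries. Genes were tested with edgeR 4.0.16 (quasi-likelihood, R 4.3.3) in 1 fit with a coefficient for each of the 4 groups, TMM factors, filterByExpr (minimum count 10, minimum total 15) and Benjamini-Hochberg adjustment at 0.05 over 10780 genes. The biological coefficient of variation was 0.323. SE was derived from the F statistic, and 95% intervals used the degrees of freedom of the fit. The test was tried on simulated data first. Ratios of summed counts have exact binomial intervals, which cover counting error only.

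The members and lists were chosen with earlier results of these data known. Named were all 10 members, in each list the 3 genes with the smallest adjusted p in an injury comparison among those past the threshold, Yap1 and Wwtr1 by level, and the 3 genes closest to Ccnd1 and to Ccnb1. Alternatives were DESeq2 1.42.0, RLE factors or library totals in place of TMM, all genes with no low-count filter, a replicate block, fits on the 6 samples compared, and leaving out each library. Gene positions are from GENCODE M21 (GRCm38) and promoter windows from RefSeq (GRCm38.p6). Protein sequences were not used here.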

Additional observations from a re-analysis of the deposited data

How the results depend on the processing

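In the injury comparisons, 3 of 360 alternative estimates of the 10 genes changed direction, all for Ccnd2 in the Yap/Taz KO background (0.29 with library totals; -0.32 to 0.27 with a library left out). In the other comparisons 33 of 524 did, none of them a called value, and the cause was not tested. Without the low-count filter edgeR called 210 genes between Yap/Taz KO and ctrl, 109 between Yap/Taz KO + CCl4 and ctrl + CCl4 and 115 in the interaction, with 1 of the 10 (Cdk1) in the first and 1 (Cdk1) in the third; DESeq2 called 43, 17 and 12. A fit on the 6 samples compared called 5 genes between the injured groups. With a library left out, the genes called ran from 1176 to 2331 for injury in Yap/Taz KO and from 1666 to 3173 in ctrl. The genes called ran from 0 to 1 between the uninjured groups and from 0 to 3 between the injured groups. The members called ran from 6 to 9 for injury in the Yap/Taz KO background (6 without replicate 2 of Yap/Taz KO). They ran from 5 to 9 in the ctrl background (9 without replicate 1 of ctrl, 5 without replicate 3 of ctrl + CCl4). For injury in ctrl, 7 were called with RLE factors (2420 genes called), with no low-count filter (2714) and on the 6 samples compared (1747). There were 8 with DESeq2 (2743 genes) and with the replicate block (2594), and 9 with library totals (2672). For injury in Yap/Taz KO, 9 were called in each of these settings, beside 1907 to 2307 genes.

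Between the injured groups, estimates near 0 turned sign: Cdk2 to -0.0023 with RLE factors, -0.13 with library totals and -0.0012 with DESeq2, Ccne1 to -0.13 with library totals, and Ccne2 to 0.045 and Cdk1 to 0.051 with the replicate block. With a library left out their ranges were -0.15 to 0.43 for Ccnd1, -0.25 to 0.082 for Cdk4, -0.23 to 0.20 for Ccne1, -0.45 to 0.40 for Ccne2, -0.16 to 0.28 for Cdk2, -0.44 to 0.25 for Cdk1 and -0.13 to 0.10 for Ccnb2. Between the uninjured groups the ranges were -0.99 to 0.31 for Ccnd1, -1.29 to 3.44 for Ccne1, -1.64 to 0.63 for Ccna2, -3.25 to 4.37 for Cdk1, -5.12 to 2.92 for Ccnb1 and -3.92 to 0.10 for Ccnb2. In the interaction they were -0.063 to 1.24 for Ccnd1, -3.41 to 1.33 for Ccne1, -0.996 to 1.27 for Ccna2, -4.51 to 3.11 for Cdk1, -3.27 to 4.76 for Ccnb1 and -0.14 to 3.88 for Ccnb2.

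Library totals moved the median of all genes by 0.37 in both injury comparisons, and the calls were then 1814 higher and 406 lower in the Yap/Taz KO background and 1974 higher and 698 lower in the ctrl background, against 1016 and 900, and 1137 and 1290, with TMM. Same-numbered libraries correlated between -0.15 and 0.32, over 0.1 in 7 of 18 pairs, and other-numbered ones between -0.35 and 0.27, over 0.1 in 7 of 36. The value of 0.32 was between replicate 1 of ctrl and replicate 1 of Yap/Taz KO. Replicate 1 of Yap/Taz KO + CCl4 had 0.23 with the first and 0.19 with the second. Replicate 1 of ctrl + CCl4 lay between -0.05 and 0.01 with these libraries. Replicate 2 of Yap/Taz KO had 0.24 with replicate 2 of ctrl and -0.15 with replicate 2 of Yap/Taz KO + CCl4. Since not every same-numbered pair was over 0.1, the numbers were not taken to pair the samples. That rule asks for all groups at once, so it cannot tell whether some of the groups shared a batch. With the replicate block the members called were 9 in the Yap/Taz KO background, 8 in the ctrl background and 0 elsewhere, and the genes called 2095, 2594 and 0. The block added Ccnd1 (edgeR adjusted p = 0.0372) and Cdk4 (0.0499) to the ctrl calls. The ctrl ratios of summed counts without replicate 1 were an addition made after seeing the data, and were 2.77 for Ccnd1, 3.42 for Ccnd2 and 2.25 for Cdk4, against 2.39, 1.47 and 1.70 with it. Depth limits the S phase and mitotic genes in uninjured libraries, where most counts were between 0 and 5.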

Other observations

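Of 22 tested cyclins and CDKs of transcription and other roles, 1 was higher and 3 lower after injury in the Yap/Taz KO background by edgeR, beside 9.42% and 8.35% of all genes tested. In the ctrl background 1 was higher and 1 lower, beside 10.5% and 12%. The share in the Yap/Taz KO background is near that of all genes. Cdk14, a kinase linked to Wnt signalling that passed the filter on low counts only through the injured libraries, averaged 12.1 ± 3.40 CPM in Yap/Taz KO + CCl4 and 2.28 ± 2.34 CPM in Yap/Taz KO (edgeR adjusted p = 0.0166). The means were 21.3 ± 3.94 CPM in ctrl + CCl4 and 3.62 ± 0.37 CPM in ctrl (adjusted p = 0.00624). The Yap/Taz KO call of Cdk14 was lost without replicate 1 (0.0592) or 2 (0.0551) of Yap/Taz KO + CCl4. Ccni, an atypical cyclin, averaged 74.3 ± 5.02 CPM in Yap/Taz KO + CCl4 and 123 ± 8.73 CPM in Yap/Taz KO (adjusted p = 0.0344), a call lost in 8 of 18 alternatives. It averaged 62.0 ± 6.49 CPM in ctrl + CCl4 and 147 ± 45.5 CPM in ctrl (adjusted p = 0.00112). Ccnl2, a cyclin linked to splicing, averaged 44.1 ± 5.32 CPM in Yap/Taz KO + CCl4 and 78.2 ± 15.1 CPM in Yap/Taz KO (log2 fold change -0.82, adjusted p = 0.017), a call lost in 5 of 18. Its level was 54.5 ± 6.44 CPM in ctrl + CCl4 and 55.3 ± 7.88 CPM in ctrl (-0.02, adjusted p = 0.956). The 3 subunits of the CDK-activating kinase, Cdk7, Ccnh and Mnat1, did not pass in either background.

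Markers of bile duct cells summed to 98.0 to 226 CPM in Yap/Taz KO + CCl4, against 388 to 463 CPM in ctrl + CCl4. Of 7 such markers 3 were tested and none passed between these groups. Cftr, a defining marker, had 1 count in 1 ctrl + CCl4 library and 0 in all others. Markers of sinusoidal endothelial cells lay between 681 and 899 CPM in Yap/Taz KO + CCl4 and between 631 and 750 CPM in ctrl + CCl4. Lymphocyte markers reached at most 13.5 CPM in any library. Erythroid markers reached 1584 CPM in replicate 1 of ctrl.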
